A study of Homo sapiens with 6 samples.

Results

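The genes described are the chaperones, disulfide isomerases and folding factors of the endoplasmic reticulum (ER), 42 of the 25445 rows of the count table. They were taken by gene symbol from a list of names, and all 42 were found. The libraries came from MHCC-97H, an established line of human liver cancer cells, kept for 16 h with 10 μM of 6j, a compound derived from sophoridine, an alkaloid of plants (Treat, 3 libraries), or with solvent alone (Control, 3 libraries). All cells were from this one line, grown in the same medium with serum and antibiotics, and the labels name no engineered allele. Each library had a replicate number from 1 to 3, and values are given below in that order. The labels do not say that replicates were separate cultures, so p-values measure only the spread between these libraries, which may be technical. Total counts ranged from 31533403 to 38018349 per library, and the lowest count of any of the 42 genes in a library was 120.

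Secreted and membrane proteins enter the ER unfolded. There, HSP70 and HSP90 type chaperones hold them, J proteins deliver them to the HSP70, the calnexin cycle reads their sugar chains, disulfide isomerases pair their cysteines and prolyl isomerases turn their proline bonds. When unfolded proteins build up, the sensors PERK, IRE1 and ATF6 start the unfolded protein response (UPR), in which ATF6 and XBP1 are known to induce many ER chaperones, while the PERK branch acts through the transcription factor ATF4. The study treated ER stress as a step in the action of 6j, and the comparison asks what the folding machinery itself did at the RNA level.

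Of the 42 genes, 8 passed the test, in both directions and mostly by small amounts. HSPA5, DNAJB9, DNAJC3 and TMX3 rose in 6j treated cells, and SDF2L1, CRELD2, FKBP2 and MANF fell, at an adjusted p under 0.05 in edgeR's quasi-likelihood test with Benjamini-Hochberg adjustment over all 15957 rows tested. These are 4 of 42 genes (9.52%) higher and 4 of 42 (9.52%) lower, where 4.79% of all rows tested were higher and 4.37% lower. When a fold change above 1.5 was also required, DNAJB9 alone was called higher and SDF2L1 alone lower (2.38% each, against 2.48% and 1.12% of all rows tested). All 42 passed the filter on low counts. The median log2 fold change of the 42 was 0.04 with quartiles of −0.15 and 0.20, and that of all rows tested was 0.00 with quartiles of −0.21 and 0.23. In sign, 23 were higher and 19 lower.

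Deviations from the group means correlated positively between libraries of the same replicate number, which does not establish that the numbers mark pairs. A second fit took the number as a block, and the calls rose from 8 to 18 of 42. Then 10 were higher (23.8%, against 13.1% of all rows tested) and 8 lower (19%, against 13.9%). The block added HYOU1, CANX, GANAB, P4HB, ERP29 and ERO1A on the higher side and SIL1, CALR, PDIA4 and PPIB on the lower side, lost none of the 8, and turned no sign. In 31 of the 42 genes, all 3 pairs of libraries with the same number moved in the direction of the fit. The fit was made from these same libraries, so the agreement is partly built in. The share over all rows was not worked out. Over the raw order of the libraries, 11 genes (26.2%) had all 3 Treat libraries above all 3 Control libraries and 10 (23.8%) had them all below, against 16% and 15.8% of all rows tested. Without Control replicate 1, or without Treat replicate 2, SDF2L1 was the single gene of the 42 past the threshold, with 0 higher and 1 lower. Over all rows tested, the counts were then 139 higher and 63 lower of 16315 without Control replicate 1. They were 152 and 65 of 16295 without Treat replicate 2, against 765 and 697 of 15957 in the main fit. Of the 42 genes, 1 was higher and 3 lower without Control replicate 2, and 2 and 2 without Control replicate 3. The counts were 4 and 4 without Treat replicate 1, and 2 and 4 without Treat replicate 3. In the same order, all rows gave 458 and 258, 364 and 261, 826 and 782, and 591 and 504.

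**Figure D1:**
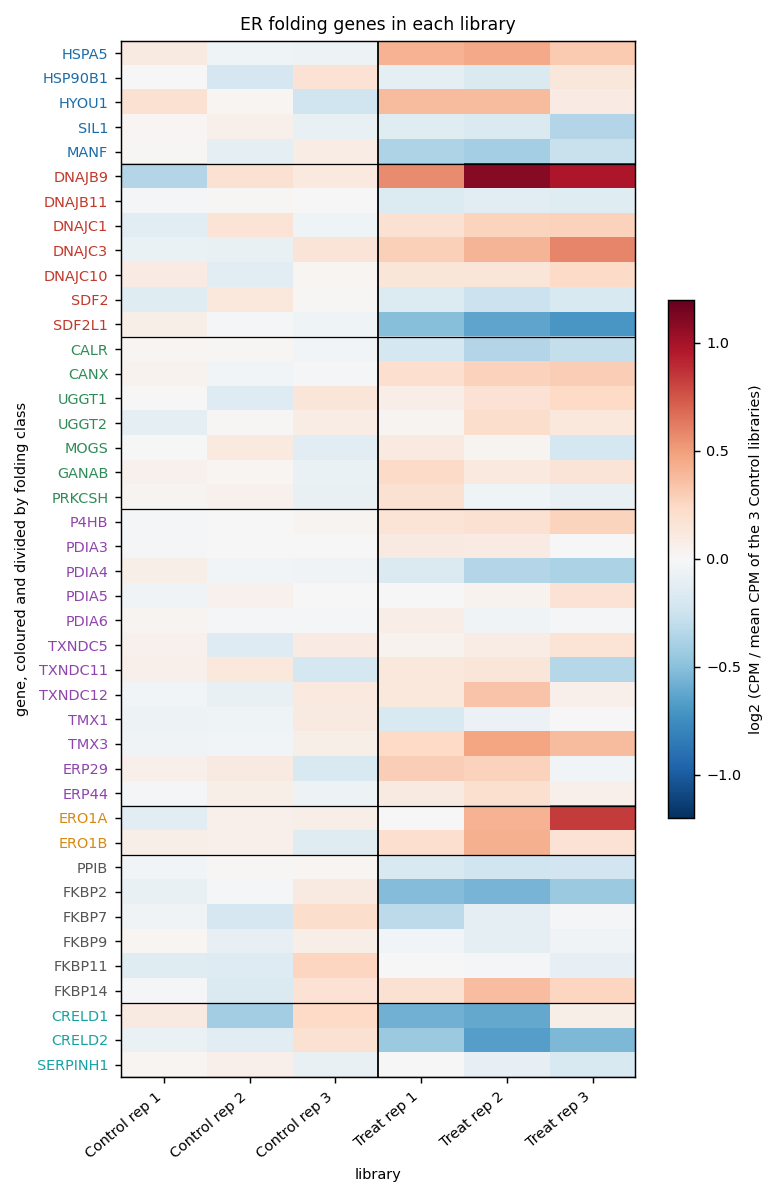
Heat map of the 42 genes (rows, divided by folding class) in the 6 libraries (columns), as the log2 of the CPM over the mean CPM of the 3 Control libraries. The rows of DNAJB9, HSPA5 and DNAJC3 are red in all 3 Treat libraries and those of SDF2L1, FKBP2 and CRELD2 are blue, with red and blue rows side by side in the same class.

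**Figure D2:**
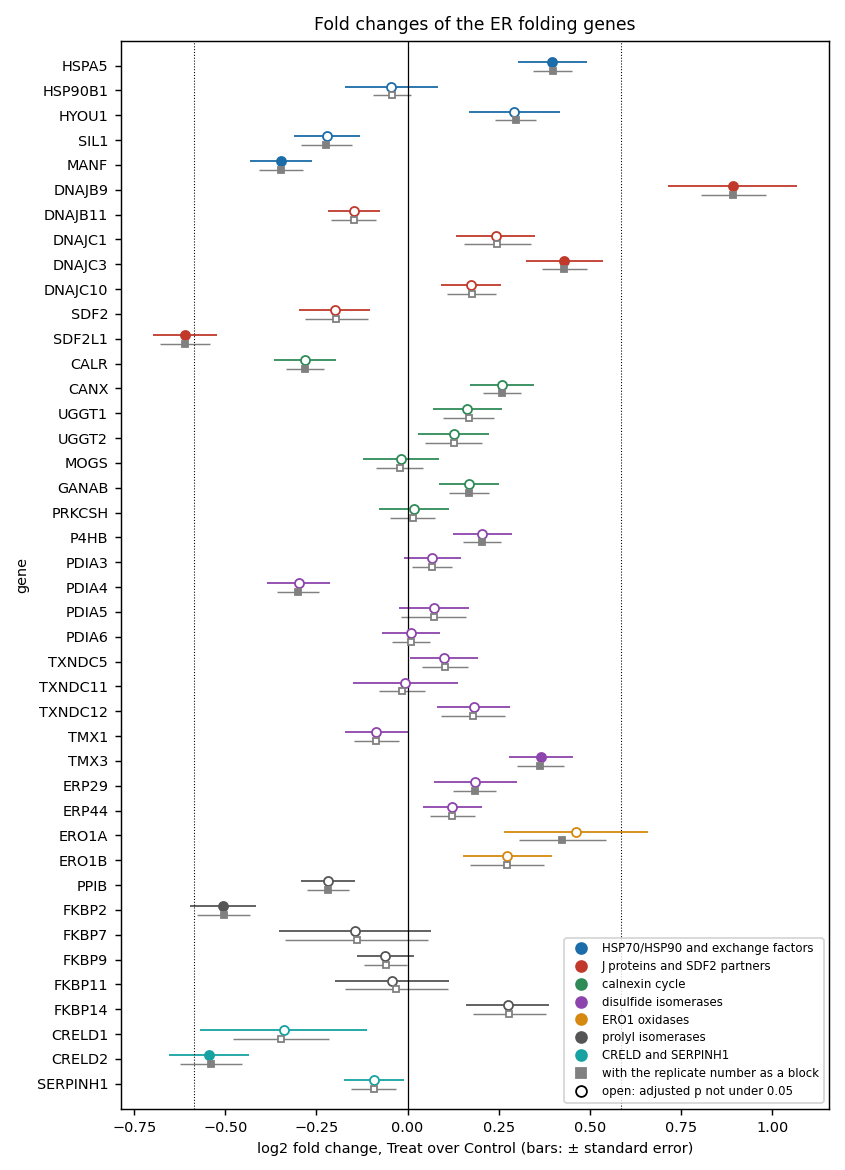
The log2 fold change of each gene, Treat over Control (points), with its standard error (bars), coloured by folding class, and in grey the same from the fit with the replicate block. Filled symbols have an adjusted p under 0.05 and dotted lines mark a fold change of 1.5 in either direction, which DNAJB9 at 0.89 and SDF2L1 at −0.61 pass.

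The first class holds the ER HSP70 and HSP90 with the factors that exchange the nucleotide of HSP70. HSPA5 (chromosome 9, 125234853 to 125241330, minus strand, GRCh38) encodes BiP, the HSP70 of the ER, which also holds the UPR sensors inactive. HSPA5 stood at 1622, 1457 and 1446 CPM in non-treated cells and 2017, 2063 and 1877 CPM in 6j treated cells, where CPM is the count of a gene scaled to the TMM normalized total of its library. The groups did not overlap. Its log2 fold change was 0.40 ± 0.09 (SE), a rise of 31.7%, with an adjusted p of 0.033 in edgeR's quasi-likelihood test. The rise stayed between 0.37 and 0.45 on the log2 scale when 1 library was left out, and its adjusted p then stayed under 0.05 only without Treat replicate 3 (0.0400) and reached 0.114 without Treat replicate 2.

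HSP90B1, which encodes GRP94, the HSP90 of the ER, was the most abundant gene of the class per length, at 419 CPM per kilobase of exon in Control against 386 for HSPA5. Its levels were 1975, 1708 and 2223 CPM in non-treated cells and 1816, 1741 and 2168 CPM in 6j treated cells. The groups overlapped throughout, and the log2 fold change was −0.04 ± 0.13 (SE) with an adjusted p of 0.869. With 1 library left out, HSP90B1 moved between −0.15 and 0.05 and so changed sign.

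The 2 nucleotide exchange factors had opposite signs. HYOU1 encodes GRP170, a large HSP70 relative that releases ADP from BiP, and had 497, 447 and 373 CPM in non-treated cells and 571, 572 and 469 CPM in 6j treated cells. In both groups replicate 3 was the lowest library, and Control replicate 1 lay above Treat replicate 3. Pair by pair, the log2 change was 0.20, 0.36 and 0.33. The log2 fold change of 0.29 ± 0.13 (SE) had an adjusted p of 0.177, which became 0.00269 with the replicate block and ran from 6.66e-05 to 0.413 over the alternatives. Here and below, such ranges leave out the formal test of a change above 1.5-fold. With 1 library left out, the log2 fold change of HYOU1 ranged from 0.19 (without Control replicate 3) to 0.39 (without Control replicate 1). SIL1, the other exchange factor, stood at 53.8, 55.3 and 49.9 CPM in non-treated cells and 47.8, 47.1 and 41.5 CPM in 6j treated cells, without overlap. Here the log2 fold change was −0.22 ± 0.09 (SE), with an adjusted p of 0.162, of 0.0325 with the block and of 0.0325 to 0.368 over the alternatives. SIL1 shares exon positions with MATR3 on the opposite strand, at 383 CPM in Control and 208 CPM in Treat on average. The log2 fold change of MATR3 was −0.88, with an adjusted p of 0.25 in the same edgeR test, and so did not pass. The sources used here do not say whether counting used the strand. The part of MATR3 in the value of SIL1 was not tested.

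MANF (chromosome 3, 51385047 to 51389397, plus strand) encodes a small ER protein that binds BiP and is also secreted under stress. Its levels were 72.2, 66.2 and 76.1 CPM in non-treated cells and 55.2, 53.9 and 59.4 CPM in 6j treated cells. Every Treat library lay below every Control library, and the log2 fold change of −0.35 ± 0.09 (SE) passed with an adjusted p of 0.0374. When libraries were left out in turn, the adjusted p stayed under 0.05 only without Treat replicate 3 and was highest, at 0.151, without Treat replicate 2. The fall was between −0.40 and −0.30 on the log2 scale throughout. The class thus held 1 rise and 1 fall among 5 genes, or 2 of each with the block, and its median log2 fold change was −0.04.

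RefSeq promoters (GRCh38.p14, 250 bases before to 50 after an annotated start) were found for 38 of the 42 genes, in 55 windows. They are shown for genes that passed the test, because ATF6 and XBP1 are known to act through short elements near the start of chaperone genes. The ER stress element was searched on both strands as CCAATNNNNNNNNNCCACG, the ER stress element II as ATTGGNCCACG, the UPR element core as TGACGTG and the amino acid response core, to which ATF4 dimers bind, as TGATGNAA. A window with 1 of them is given below with the matched letters in capitals. Near matches were not counted. The window of HSPA5 (chr9:125241294-125241593, minus strand) held 1 ER stress element as spelled, which begins 66 bases before the annotated start.
HSPA5: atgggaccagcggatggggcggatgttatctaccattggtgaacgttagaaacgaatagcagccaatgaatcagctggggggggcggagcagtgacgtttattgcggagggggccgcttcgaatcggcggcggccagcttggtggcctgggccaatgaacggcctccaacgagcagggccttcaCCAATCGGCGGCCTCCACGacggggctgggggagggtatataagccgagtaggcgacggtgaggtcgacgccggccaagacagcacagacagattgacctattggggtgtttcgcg

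The ER stress element lay in 7 of 38 genes (18.4%), namely HSPA5, HSP90B1, CALR, CANX, PDIA6, ERO1B and CRELD2, and in 16.4% of the 55 windows, some of which overlap, against 0.0769% of all 35116 windows. The ER stress element II lay in HYOU1 and SDF2L1 (3.64% of the windows against 0.0541%), and the UPR element core in HYOU1, DNAJC10, TXNDC5, TXNDC11 and FKBP11 (9.09% against 1.97%). The amino acid response core was in 0 of the 38 genes and in 3.62% of all windows. Both directions of change were found among the genes with an ER stress element. With the replicate block, HSPA5 and CANX were higher, CALR and CRELD2 were lower, and HSP90B1, PDIA6 and ERO1B did not pass. Of the pair with ER stress element II, HYOU1 was higher with the block and SDF2L1 was lower. A match is only a run of letters and no evidence of binding. The ER stress and UPR elements are known from chaperone genes, so their higher share among the folding genes is no independent result. The same site of CANX was also counted in several overlapping windows.

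J proteins carry unfolded clients to BiP and start its ATP cycle, and SDF2 and SDF2L1 form complexes with the J protein DNAJB11. This class held the largest rise and the largest fall among the 42 genes. DNAJB9 (chromosome 7, 108569568 to 108574850, plus strand) encodes ERdj4, which brings BiP to the sensor IRE1 and takes part in degradation of misfolded proteins. DNAJB9 had 14.2, 20.7 and 19.7 CPM in non-treated cells and 27.0, 38.7 and 35.6 CPM in 6j treated cells. The lowest Treat library was above the highest Control library, and the pairs differed by 0.92, 0.90 and 0.85 on the log2 scale. The log2 fold change of 0.89 ± 0.18 (SE) was a 1.86-fold rise with an adjusted p of 0.0194. Left out in turn, Control replicate 1 and Treat replicate 2 each took the adjusted p past 0.05 (highest 0.0968), while the log2 fold change stayed between 0.74 and 1.03. Exons of DNAJB9 overlap THAP5 and PNPLA8 on the opposite strand, whose log2 fold changes of 0.37 and 0.35 had adjusted p-values of 0.0734 and 0.0756. Their part in the value of DNAJB9 was not tested.

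DNAJC3 (chromosome 13, 95677139 to 95794989, plus strand) encodes P58IPK, a J protein and co-chaperone of BiP. Its levels were 81.7, 81.1 and 96.2 CPM in non-treated cells and 105, 114 and 129.8 CPM in 6j treated cells. All Treat libraries lay above all Control libraries, by a log2 fold change of 0.43 ± 0.11 (SE) with an adjusted p of 0.0374. It did not stay under 0.05 when Control replicate 1, Control replicate 2, Treat replicate 2 or Treat replicate 3 was left out, the highest being 0.159, and the log2 fold change stayed between 0.34 and 0.52.

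SDF2L1 (chromosome 22, 21642261 to 21644298, plus strand) had the smallest adjusted p of the 42 genes. It stood at 62.0, 58.3 and 57.0 CPM in non-treated cells and 41.4, 38.2 and 36.4 CPM in 6j treated cells. The libraries formed narrow, separate groups, and the log2 fold change of −0.61 ± 0.09 (SE) was a fall to 0.655 of the Control level with an adjusted p of 0.00723. This fall passed with each of the 6 libraries left out, between −0.66 and −0.57 on the log2 scale, and its adjusted p was then at most 0.0492. Per length it was the most abundant gene of the class, at 53.8 CPM per kilobase in Control and 35.2 in Treat. The remaining J proteins and SDF2 did not pass in either fit. Their log2 fold changes were −0.15 for DNAJB11, 0.24 for DNAJC1, 0.17 for DNAJC10 and −0.20 for SDF2, and in each the groups did not overlap. In the class, 4 genes lay wholly higher and 3 wholly lower, as did 16% and 15.8% of all rows tested. DNAJB11 shares exon positions on its own strand with another annotated gene, and its counts are uncertain to that extent.

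The promoter of SDF2L1 (chr22:21642052-21642351, plus strand) held 1 ER stress element II, in reverse, beginning 188 bases before the start. The promoters of DNAJB9 (chr7:108569624-108569923, plus strand) and DNAJC3 (chr13:95676889-95677188, plus strand) held none of the 4 motifs as spelled, and are shown beside it in lower case because these 3 genes passed the test in opposite directions.
SDF2L1: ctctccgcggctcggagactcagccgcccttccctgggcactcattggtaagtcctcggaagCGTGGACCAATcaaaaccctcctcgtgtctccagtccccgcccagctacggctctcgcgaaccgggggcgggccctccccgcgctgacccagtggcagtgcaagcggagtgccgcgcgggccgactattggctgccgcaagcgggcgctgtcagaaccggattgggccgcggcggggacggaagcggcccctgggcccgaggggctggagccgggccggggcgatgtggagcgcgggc
DNAJB9: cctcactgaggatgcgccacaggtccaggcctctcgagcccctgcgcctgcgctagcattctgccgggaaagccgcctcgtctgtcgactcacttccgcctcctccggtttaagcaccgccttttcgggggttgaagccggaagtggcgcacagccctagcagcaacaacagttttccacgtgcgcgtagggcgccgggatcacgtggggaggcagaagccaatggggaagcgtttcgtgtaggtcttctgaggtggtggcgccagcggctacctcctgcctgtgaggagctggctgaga
DNAJC3: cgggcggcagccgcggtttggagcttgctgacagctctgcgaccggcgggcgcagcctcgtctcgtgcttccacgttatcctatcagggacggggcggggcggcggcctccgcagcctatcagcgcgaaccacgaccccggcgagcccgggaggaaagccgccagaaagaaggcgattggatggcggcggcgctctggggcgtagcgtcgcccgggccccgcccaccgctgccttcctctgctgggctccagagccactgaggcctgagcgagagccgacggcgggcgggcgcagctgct

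**Figure D3:**
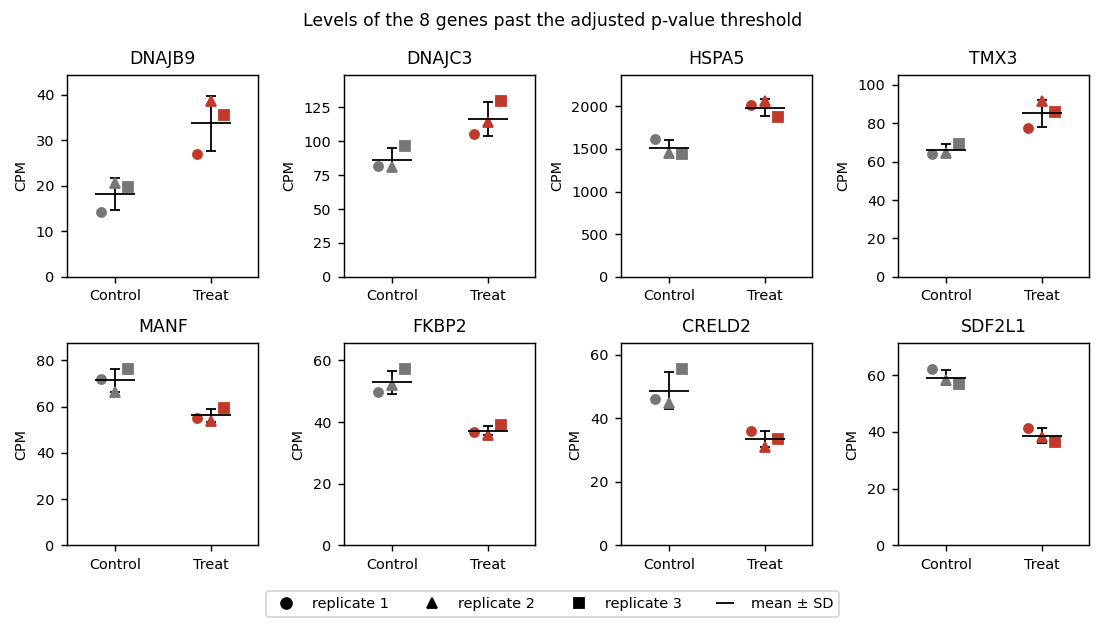
CPM of the 8 genes with an adjusted p under 0.05 (one panel each, vertical axis from 0) in Control (grey) and Treat (red), with a marker shape for each replicate number and the mean ± SD of 3 libraries. In each panel the groups do not overlap, from DNAJB9 with a log2 fold change of 0.89 to SDF2L1 with −0.61.

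In the calnexin cycle, the lectins CANX and CALR hold glycoproteins whose sugar chain ends in 1 glucose, glucosidases trim the chain and UGGT enzymes put the glucose back on unfolded proteins. None of the 7 genes passed without the block, and CANX, GANAB (higher) and CALR (lower) passed with it. CALR, the soluble lectin, was the most abundant of all 42 genes per length, at 546 CPM per kilobase in Control. It had 1507, 1495 and 1447 CPM in non-treated cells and 1279, 1164 and 1218 CPM in 6j treated cells. All Treat libraries were below all Control libraries, with a log2 fold change of −0.28 ± 0.09 (SE) and an adjusted p of 0.0728, or 0.00233 with the replicate block (4.99e-05 to 0.245 over the alternatives). CANX, the membrane lectin, had the opposite sign, at 1979, 1879.6 and 1904 CPM in non-treated cells and 2212, 2324 and 2361 CPM in 6j treated cells. Again there was no overlap, with a log2 fold change of 0.26 ± 0.09 (SE) and an adjusted p of 0.0971, or 0.00397 with the block (0.000271 to 0.242 over the alternatives).

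GANAB encodes the catalytic subunit of glucosidase II and had 533, 521 and 487 CPM in non-treated cells and 603, 556 and 573 CPM in 6j treated cells. The lowest Treat library was above the highest Control library. Its log2 fold change was 0.17 ± 0.08 (SE), with an adjusted p of 0.231, of 0.0406 with the block and of 0.0344 to 0.448 over the alternatives. PRKCSH, the other subunit of the same enzyme, had a log2 fold change of 0.02. Those of MOGS (glucosidase I), UGGT1 and UGGT2 were −0.02, 0.16 and 0.13, and none of these 4 genes passed in either fit.

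Disulfide isomerases, the largest class with 12 genes, make and reshuffle disulfide bonds. TMX3 rose and no gene of the class fell without the block, and the median log2 fold change was 0.09. TMX3 (chromosome 18, 68673688 to 68715298, minus strand), a membrane-bound member, had 64.0, 64.8 and 69.4 CPM in non-treated cells and 77.7, 91.7 and 86.0 CPM in 6j treated cells. The groups did not overlap, and the log2 fold change of 0.37 ± 0.09 (SE) had an adjusted p of 0.0337. Among the fits with 1 library left out it passed only without Treat replicate 1, with a highest adjusted p of 0.145 without Control replicate 1 and a log2 fold change of 0.31 to 0.43.

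P4HB encodes the classical protein disulfide isomerase, which is also a subunit of collagen prolyl hydroxylase. Its levels were 709, 716 and 737 CPM in non-treated cells and 809, 816 and 868 CPM in 6j treated cells. All Treat libraries lay above all Control libraries, with a log2 fold change of 0.20 ± 0.08 (SE) and an adjusted p of 0.145, or 0.0123 with the block (0.00417 to 0.382 over the alternatives). PDIA4, which encodes ERp72, had the opposite sign, at 284, 264 and 262 CPM in non-treated cells and 239, 212 and 207 CPM in 6j treated cells. It showed no overlap either, and its log2 fold change was −0.30 ± 0.09 (SE) with an adjusted p of 0.06, or 0.00283 with the block (8.57e-05 to 0.235 over the alternatives).

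ERP29 encodes a relative of the isomerases that lacks their active site cysteines. It had 194, 199 and 163 CPM in non-treated cells and 227, 225 and 181 CPM in 6j treated cells. As in HYOU1, replicate 3 was the lowest in both groups and the groups overlapped, while the log2 changes of the pairs were 0.23, 0.17 and 0.15. The log2 fold change of 0.19 ± 0.11 (SE) had an adjusted p of 0.351, of 0.0385 with the block and of 0.0317 to 0.658 over the alternatives, while the log2 fold change was lowest without Control replicate 3, at 0.10, and highest without Treat replicate 3, at 0.29. PDIA3, the partner of CALR and CANX, was the most abundant of the class per length (139.9 CPM per kilobase in Control) and stood at 587, 597 and 596 CPM in non-treated cells and 639, 634 and 593 CPM in 6j treated cells. These values overlapped, with a log2 fold change of 0.07 ± 0.08 (SE) and an adjusted p of 0.642. The other 7 isomerases had log2 fold changes from −0.09 (TMX1) to 0.18 (TXNDC12), and none passed in either fit. PDIA5, TXNDC5 and TXNDC12 share exon positions with other genes on the same strand.

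ERO1 oxidases pass electrons from the isomerases to oxygen. ERO1A, the more abundant per length at 18.2 CPM per kilobase in Control, had 125, 143 and 145 CPM in non-treated cells and 138, 184 and 247 CPM in 6j treated cells. Treat replicate 1 lay within the Control range, whereas Treat replicate 3 was the highest library, and the log2 changes of the pairs were 0.14, 0.36 and 0.77. The log2 fold change of 0.46 ± 0.20 (SE) had the third largest standard error of the 42 genes, with an adjusted p of 0.192 that was 0.0436 with the block (0.000357 to 0.428 over the alternatives). Without Treat replicate 3 the log2 fold change was 0.23, and without Treat replicate 1 it was 0.65 and passed. ERO1B had a log2 fold change of 0.27 ± 0.12 (SE) and an adjusted p of 0.192, with all Treat libraries above all Control libraries.

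Prolyl isomerases speed the turn of proline bonds, much of it in collagens and other secreted proteins. FKBP2 (chromosome 11, 64241003 to 64244132, plus strand) fell, from 49.6, 52.0 and 57.1 CPM in non-treated cells to 36.9, 35.9 and 39.0 CPM in 6j treated cells. No library of one group reached the other. It changed by −0.51 ± 0.09 (SE) on the log2 scale, with an adjusted p of 0.0126, and this stayed between −0.55 and −0.45 with 1 library left out. Control replicate 1 and Treat replicate 2 each took the adjusted p past 0.05 when left out, to at most 0.072. RefSeq gives FKBP2 5 promoter windows, which held none of the 4 motifs as spelled.

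PPIB encodes cyclophilin B and was the most abundant of the class per length, at 181 CPM per kilobase in Control. Its levels were 337, 349.6 and 351 CPM in non-treated cells and 304, 292 and 295 CPM in 6j treated cells. The Treat libraries all lay below, by a log2 fold change of −0.22 ± 0.07 (SE) with an adjusted p of 0.098, or 0.0145 with the block (0.0054 to 0.256 over the alternatives). The FKBP7, FKBP9 and FKBP11 log2 fold changes were −0.14, −0.06 and −0.04, with overlap, and that of FKBP14 was 0.28, without overlap, and none of the 4 passed. FKBP7 had the lowest level per length of all 42 genes (1.42 CPM per kilobase in Control), and FKBP11 shares exon positions with another gene on its strand.

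The last class holds the CRELD proteins and SERPINH1. CRELD2 (chromosome 22, 49918167 to 49927540, plus strand), a soluble ER protein with isomerase activity that is known to be induced by ER stress, fell here. It had 46.2, 44.7 and 55.4 CPM in non-treated cells and 35.9, 30.8 and 33.6 CPM in 6j treated cells. The highest Treat library was below the lowest Control library, and the log2 fold change of −0.54 ± 0.11 (SE) had an adjusted p of 0.0198. Leaving out Control replicate 1, Control replicate 3 or Treat replicate 2 took it past 0.05, to at most 0.101, while the log2 fold change stayed between −0.60 and −0.44. CRELD2 overlaps ALG12 on the opposite strand, whose log2 fold change was −0.09 with an adjusted p of 0.778. CRELD1, its membrane-bound relative, had the largest standard error of the 42 genes, with a log2 fold change of −0.34 ± 0.23 (SE) and an adjusted p of 0.397, and ranged from −0.59 without Treat replicate 3 to −0.21 without Control replicate 3. SERPINH1, the collagen chaperone HSP47 and the most abundant of this class per length (26.8 CPM per kilobase in Control), had 170.4, 176 and 158 CPM in non-treated cells and 167, 158 and 148 CPM in 6j treated cells. Those ranges overlapped, with a log2 fold change of −0.09 ± 0.08 (SE) and an adjusted p of 0.531. The promoter of CRELD2 (chr22:49918384-49918683, plus strand) is shown because it held 1 ER stress element, in reverse, beginning 80 bases before the start, in a gene that fell.
CRELD2: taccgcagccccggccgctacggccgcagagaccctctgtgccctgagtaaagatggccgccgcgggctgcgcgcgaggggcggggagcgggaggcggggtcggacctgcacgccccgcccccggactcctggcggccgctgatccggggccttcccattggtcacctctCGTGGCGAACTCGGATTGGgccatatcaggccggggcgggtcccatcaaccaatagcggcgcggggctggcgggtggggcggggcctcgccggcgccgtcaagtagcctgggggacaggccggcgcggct

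**Figure D4:**
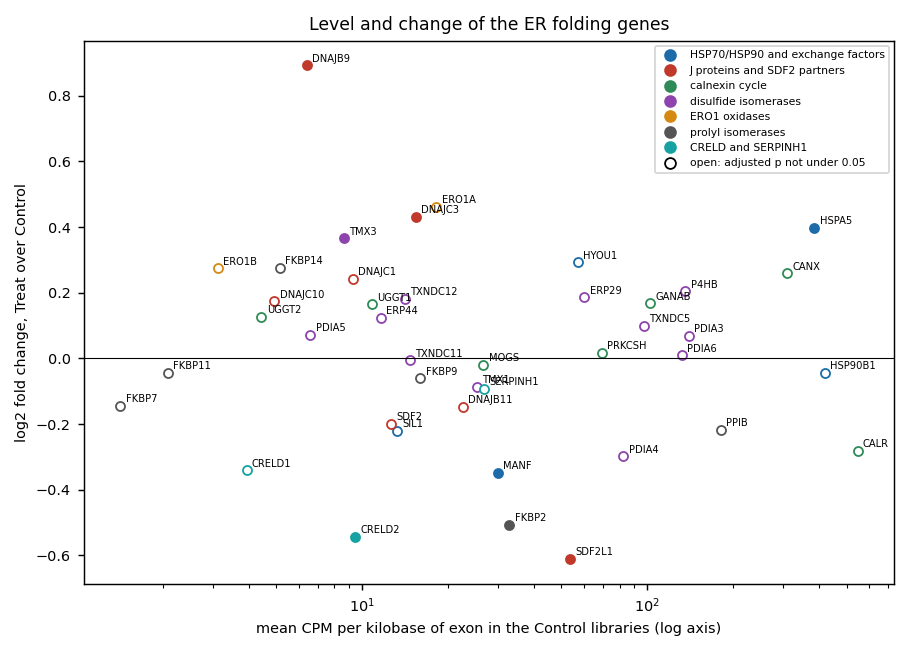
The mean level of each of the 42 genes in Control (CPM per kilobase of exon, log axis) against its log2 fold change (Treat over Control), coloured by folding class and filled where the adjusted p was under 0.05. The 4 most abundant genes lie on both sides of 0, with HSPA5 at 0.40 and CANX at 0.26 above it and HSP90B1 at −0.04 and CALR at −0.28 below.

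Within a library, the ratio of related genes gives a comparison that does not depend on its scaling. The log2 ratio of CALR to CANX was −0.37 ± 0.04 (SD, n = 3) in Control and −0.91 ± 0.11 in Treat, a difference of −0.54. For TMX1 over TMX3 the means were 0.78 ± 0.03 and 0.33 ± 0.08, a difference of −0.45. For SDF2L1 over SDF2 they were 0.49 ± 0.19 and 0.07 ± 0.09, a difference of −0.42. In these 3 pairs the groups did not overlap, and the two-sided exact permutation test gave p = 0.1, the smallest that 3 against 3 libraries allow (0.2 after Benjamini-Hochberg adjustment over the 6 pairs compared). The differences for ERO1A over ERO1B (0.15, exact p = 0.8), CRELD2 over CRELD1 (−0.19, exact p = 0.5) and UGGT1 over UGGT2 (0.04, exact p = 0.8) were within the spread between libraries. Paired by replicate number, the smallest p possible was 0.25, and CALR over CANX moved by −0.40, −0.67 and −0.56 in the 3 pairs.

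The 42 genes took 1.33%, 1.27% and 1.30% of all counts in the Control libraries and 1.41%, 1.41% and 1.38% in the Treat libraries. The groups did not overlap, with means of 1.30% ± 0.0283 and 1.40% ± 0.0167 (SD, n = 3). CANX, HSP90B1, HSPA5 and CALR together made up 52.7% ± 1.00 of the counts of the 42 genes in Control and 53.3% ± 0.832 in Treat. Without CANX, the gene with the most counts, the difference of 0.101 percentage points became 0.0605. That remainder still held HSPA5, whose mean went from 1508 CPM in Control to 1986 CPM in Treat, while CANX went from 1921 to 2299 CPM. It also held genes that fell, such as CALR, from 1483 to 1220 CPM. The share is therefore no measure of a rise spread over the folding genes. Among the classes, the prolyl isomerases went from 4.01% ± 0.157 to 3.31% ± 0.0408 of the counts of the 42 genes, and the HSP70 and HSP90 class from 30.9% ± 1.30 to 32.6% ± 0.214. In bulk RNA, fewer cells expressing a gene and less of its RNA per cell cannot be told apart.

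Other lists of related genes, read in the same fit, were set beside the folding genes. Of 35 other ER folding genes tested, 3 rose and 0 fell (8 and 0 with the replicate block), with a median log2 fold change of 0.02. The 3 were CLGN, a calnexin relative (log2 fold change 1.08, adjusted p = 0.0036), HSPA13, an HSP70 relative (log2 fold change 0.91, adjusted p = 0.00696), and TXNDC16, a thioredoxin domain protein (log2 fold change 0.36, adjusted p = 0.0481). Genes of ER-associated degradation, which export misfolded proteins to the proteasome, had 5 higher and 1 lower of 28 (9 and 1 with the block), with a median of 0.07. Those with the smallest adjusted p were HERPUD1 (log2 fold change 1.28, adjusted p = 0.00173), DERL1 (log2 fold change 0.53, adjusted p = 0.0119) and SEL1L (log2 fold change 0.64, adjusted p = 0.0147), all parts of the membrane complex that exports proteins. Named after their values were seen, the other 2 that rose were SYVN1 (log2 fold change 0.35, adjusted p = 0.0476) and EDEM1 (log2 fold change 0.49, adjusted p = 0.0438), and the 1 that fell was VCP, the ATPase that pulls proteins out of the membrane (log2 fold change −0.45, adjusted p = 0.0247). Without Control replicate 1, or without Treat replicate 2, 1 gene of this list was higher and 0 lower, and without Control replicate 2 or Control replicate 3 there were 3 and 0.

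The medians of the regulators lay further from 0 than that of the folding genes. Of 18 genes listed as UPR sensors and transcription factors, 12 rose and 0 fell (13 and 0 with the replicate block). The list also holds TRIB3, PPP1R15A, MBTPS1 and MBTPS2, which are neither sensors nor transcription factors. Of these, TRIB3 (log2 fold change 1.94) and PPP1R15A (1.63) rose, and MBTPS1 (−0.14) and MBTPS2 (0.12) did not pass. The median log2 fold change of the 18 was 0.53. The smallest adjusted p-values were those of DDIT3 (log2 fold change 2.27, adjusted p = 0.000575), ATF4 (log2 fold change 1.10, adjusted p = 0.000839) and CEBPG (log2 fold change 1.36, adjusted p = 0.000849). Of 28 amino acid response genes regulated by ATF4, 20 rose and 0 fell (25 and 0 with the replicate block), with a median of 0.93, with the biosynthetic enzymes ASNS (log2 fold change 1.74, adjusted p = 0.000575), SHMT2 (log2 fold change 1.04, adjusted p = 0.000575) and PHGDH (log2 fold change 1.36, adjusted p = 0.000839) at the head by adjusted p. TRIB3, ATF5 and CEBPG are in both of these lists. Of 28 cytosolic chaperones, 0 rose and 11 fell (0 and 16 with the replicate block), with a median of −0.25, and the first by adjusted p were AHSA1 (log2 fold change −0.56, adjusted p = 0.00696) and FKBP4 (log2 fold change −0.48, adjusted p = 0.01), co-chaperones of HSP90, and HSP90AA1, the stress-inducible HSP90 (log2 fold change −0.58, adjusted p = 0.00891). Their count fell to 1 without Control replicate 1, to 7 without Control replicate 2 and to 3 without Treat replicate 2, and the UPR count to 7 without Control replicate 1 or Treat replicate 2. These counts are descriptions, and differences between lists were not tested.

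**Figure D5:**
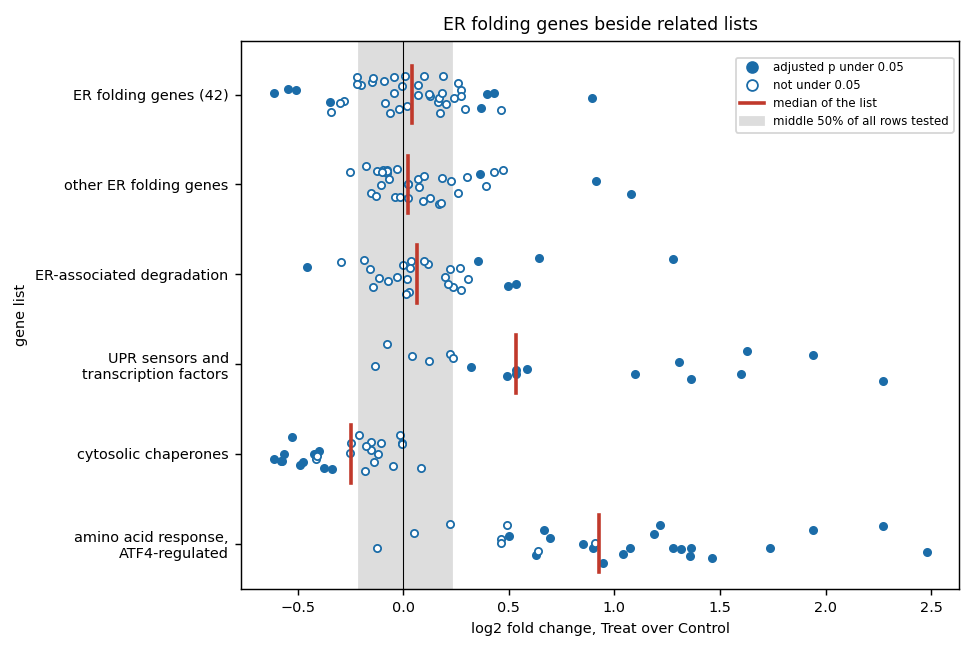
The log2 fold change (Treat over Control) of each tested gene (points) in the 42 ER folding genes and 5 related lists, filled where the adjusted p was under 0.05, with the median of each list (red line) and the middle 50% of all 15957 rows tested (grey band, −0.21 to 0.23). The folding genes spread to both sides of a median of 0.04, whereas the medians of the UPR and ATF4 lists lie at 0.53 and 0.93 and that of the cytosolic chaperones at −0.25.

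The liver origin of the line was checked against marker genes. Of 10 hepatocyte and hepatocellular carcinoma markers, 9 were under 1 CPM in every library and 3 were at 0 throughout, GPC3 and TTR among them. The list summed to 0.603 to 1.36 CPM in Control and 1.25 to 1.86 CPM in Treat, so it does not bear out a liver origin. Of 5 epithelial markers, 3 (KRT19, CDH1 and EPCAM) were under 1 CPM in every library, and EPCAM was at 0. KRT8 and KRT18 were abundant and made up nearly all of the sum. That sum was 904 to 1109 CPM in Control and 705 to 823 CPM in Treat, with KRT8 lower (log2 fold change −0.58, adjusted p = 0.0211). The 3 fibroblast markers summed to 222 to 281 CPM and 208 to 276 CPM, nearly all COL1A1, while COL1A2 was at 0. Of the 3 leukocyte markers CD68 was detected and PTPRC and CD3E were at 0, and the 3 endothelial markers summed to at most 6.25 CPM. The part of KRT8 in the values of the folding genes was not tested.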

How the data were processed

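Polyadenylated RNA of 6 libraries was sequenced, and the counts of each gene were deposited by the authors as whole numbers with no normalization. The submitters' processing notes name HISAT2, StringTie and the genome GRCh38. The counting program and annotation are not given in the sources used here, and in each library fewer rows held a 1 than a 2, so the numbers may be rounded estimates. They were used as deposited.

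Low rows were removed by filterByExpr (about 10 counts per library, total of at least 15). The model was the robust quasi-likelihood fit of edgeR 4.0.16 under R 4.3.3, with TMM factors and no covariates, over all rows. Benjamini-Hochberg adjusted p-values cover the 15957 rows tested. Standard errors (SE) were worked back from the test, as the absolute log2 fold change over the square root of the quasi-likelihood F. The log2 CPM values had a prior count of 2, and paralog ratios were tested in Python 3.11.15 with scipy 1.17.1. The depth was 31533403 to 38018349 counts per library. Libraries of one group differed by more than counting noise, with a chi-square over its degrees of freedom of 22.2 to 62.4. Depth alone therefore does not set the precision. The methods section of the study names DESeq2, and version 1.42.0 was an alternative. The code was tried on simulated counts, with changes larger than those of the folding genes and no effect of the replicate number. How well it finds smaller changes or handles such an effect was not tested.

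Groups share replicate numbers, whose meaning is not stated. Deviations from the group means correlated at 0.171, 0.180 and 0.312 for the same number and at −0.231 to 0.0795 for different numbers. The numbers were therefore taken to pair the libraries in the fit with the block. Deviations sum to 0 within a group, so the values for same and different numbers are not independent, and few pairings are possible. The correlations do not establish what the numbers mark.

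Genes and lists were chosen with earlier results of these data known. Values in every library are given for genes with an adjusted p under 0.05 with or without the block and for the most abundant of each class per length, and the 3 with the smallest adjusted p are named from each related list. Overlapping genes were named for their position. Gene coordinates and exon lengths are from GENCODE version 29 (GRCh38). Planned protein motifs were not analysed here.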

Additional observations from a re-analysis of the deposited data

How the results depend on the processing

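With RLE or upper quartile normalization, without the filter or with a stricter one (50 counts in each of 3 libraries), the 42 genes kept their direction and their side of the threshold. Without normalization factors 41 did, the log2 fold change of TXNDC11 turned to 0.0133 and the median of the 42 genes was 0.0596. DESeq2 took the genes past the adjusted p from 4 to 6 higher and from 4 to 7 lower, and all rows from 765 to 1281 higher and from 697 to 1234 lower. The replicate block gave 10 higher and 8 lower in edgeR and 10 higher and 7 lower in DESeq2, and it raised the other ER folding genes from 3 to 8 (DESeq2 5, or 7 with the block) and the degradation genes from 5 to 9 (DESeq2 with the block 9). Beyond the 42 genes, pairing by replicate number also added calls to the remaining lists, where the cytosolic chaperones went from 11 to 16 lower, the ATF4 list from 20 to 25 higher and the UPR list from 12 to 13 higher. A formal test of a change above 1.5-fold (glmTreat) called 0 genes higher and 0 lower of the 42, of 32 in all rows, against 574 calls in the main analysis and 1033 with the block, 800 with DESeq2 and 930 with both. At an unadjusted p under 0.05, 16 of the 42 passed without the fold, against 4175 of the 15957 rows tested.

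With 1 library left out, fewer samples remained. The genes past the adjusted p then numbered 0 to 4 higher and 1 to 4 lower, and those also past 1.5-fold 0 to 2 higher and 0 to 2 lower (0 and 0 without Control replicate 1, 0 and 1 without Treat replicate 2, 1 and 2 without Control replicate 2, 2 and 2 without Treat replicate 1, 1 and 0 without Treat replicate 3). Calls over all rows fell to 186 without Control replicate 1 and to 193 without Treat replicate 2. The median log2 fold change of the 42 ranged from 0.0188 to 0.0700, that of the J proteins from 0.116 to 0.189, of the calnexin cycle from 0.0713 to 0.136 and of the CRELD class from −0.547 to −0.208. The degradation genes numbered 1 to 4 higher and 0 to 1 lower, the UPR list 7 to 12 higher and the cytosolic chaperones 1 to 9 lower. Genes near 0 changed sign, and the cause was not tested. HSP90B1 ranged from −0.146 to 0.0515, MOGS from −0.0879 to 0.0700, PRKCSH from −0.0721 to 0.0696, PDIA6 from −0.0255 to 0.0352, TXNDC11 from −0.102 to 0.137 and FKBP11 from −0.112 to 0.104. Among the ratios, ERO1A over ERO1B ranged from −0.107 to 0.329 and CRELD2 over CRELD1 from −0.348 to 0.0208, both turning without Treat replicate 3, and UGGT1 over UGGT2 from −0.0423 to 0.0970, turning without Control replicate 2. Without CANX but with HSPA5 kept, the share of counts in the folding genes differed by 0.0605 percentage points.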
